A study of Mus musculus with 53 samples.

Results

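Genes of the MHC class II presentation pathway, chosen by name, were followed through the response of mouse macrophages to interleukin-4 (IL-4). They are 8 of the 23847 loci listed in the deposited tables: the transactivator gene Ciita, the chain genes H2-Aa, H2-Ab1 and H2-Eb1, the invariant chain gene Cd74 and the peptide editor genes H2-DMa, H2-DMb1 and H2-DMb2. All 8 reached 1 FPKM (fragments of a transcript, scaled by its length and by the mapped fragments of the sample) in at least 1 sample and were therefore among the 11146 loci tested. The cells were bone marrow-derived macrophages (BMDMs) of C57BL/6 mice aged 8 to 12 weeks, either wild type (WT) or Stat6-/-, a full-body knockout of the transcription factor that IL-4 signalling activates. Every culture had first been differentiated for 6 days with L929 cell supernatant, a source of M-CSF. BMDMs of each genotype were then given 20 ng/ml IL-4 for 1, 3, 6 or 24 h, or left without it for the same times, and untreated cells were also taken at 0 h. The 53 samples form 18 groups. Each WT group held 4 samples except 24 h with IL-4, which held 3 (replicates 2, 3 and 4), and each Stat6-/- group held 2.

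MHC class II molecules are pairs of an alpha and a beta chain that show peptides from endosomes to CD4+ T cells. In the endoplasmic reticulum the pair is held by the invariant chain, which fills the peptide groove and carries the complex to endosomes, where proteases degrade it to the fragment CLIP. H2-DM, itself an alpha and beta pair, then removes CLIP and favours stable peptides. Ciita is the coactivator that class II promoters need: it does not bind DNA but docks on factors at the conserved X and Y boxes, among them RFX and NF-Y. Interferon-gamma is its classical inducer in macrophages. C57BL/6 mice make no E alpha chain, so that the H2-Eb1 product lacks its partner in these cells.

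All members but Ciita and Cd74 lie within the MHC on chromosome 17. The spans are those deposited with the FPKM values (mm10). Strands, overlaps and gene types are from GENCODE M21, where all members are protein-coding. H2-DMa spans chr17:34122832-34139101, H2-DMb2 chr17:34145416-34151095, H2-DMb1 chr17:34153191-34160229, H2-Ab1 chr17:34263227-34269418 and H2-Eb1 chr17:34305867-34316674, each on the plus strand, and H2-Aa spans chr17:34282751-34287771 on the minus strand. Ciita spans chr16:10480072-10527564 on the plus strand. The libraries did not mark the strand, so reads of genes that overlap on opposite strands cannot be told apart: Brd2 shares 360 of the 3448 exon bases of H2-DMa (10.4%), and Dexi shares 329 of the 9535 exon bases of Ciita (3.45%). H2-DMb1 and H2-DMb2 are close paralogs, and 369 of the 1629 words of 50 bases in H2-DMb1 transcripts (22.6%) also occur in H2-DMb2. They are 21.2% of the 1741 words of H2-DMb2, so reads could be split between the 2 genes or assigned to the wrong one.

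Promoter sequence shows where the Y box and the end of the X box lie in these genes. A RefSeq promoter window (GRCm38.p6, 250 bases before to 50 after the start of the gene) was at hand for 5 members, H2-DMa with 2 windows and H2-DMb1, H2-DMb2, H2-Aa and H2-Eb1 with 1 each. The stretches below run 5′ to 3′ on the strand of the gene, from 140 to 21 bases before the start. They are shown to set the DM beta genes beside H2-Aa and H2-Eb1. All distances to a start are from RefSeq starts, which for H2-DMb2 and H2-Aa lie upstream of those in the spans above. Capitals mark the Y box GATTGG (or its reverse complement) and the letters AACNGATG, which cover the end of the X box and were chosen after the sequences had been seen.
H2-DMb2, chr17:34145109-34145228, plus strand: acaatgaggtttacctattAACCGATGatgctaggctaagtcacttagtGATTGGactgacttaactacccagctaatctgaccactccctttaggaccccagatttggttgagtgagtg
H2-DMb1, chr17:34153051-34153170, plus strand: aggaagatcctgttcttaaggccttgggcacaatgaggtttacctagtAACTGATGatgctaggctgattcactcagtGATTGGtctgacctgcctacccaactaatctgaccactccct
H2-Eb1, chr17:34305727-34305846, plus strand: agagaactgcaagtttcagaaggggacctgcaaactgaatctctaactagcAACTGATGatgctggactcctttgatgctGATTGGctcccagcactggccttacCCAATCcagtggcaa
H2-Aa, chr17:34287844-34287963, minus strand: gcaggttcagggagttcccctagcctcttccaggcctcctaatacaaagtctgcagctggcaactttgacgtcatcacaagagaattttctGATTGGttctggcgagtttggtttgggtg

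In H2-DMb2 the Y box began 91 bases before the RefSeq start, in H2-DMb1 62, in H2-Eb1 60 and in H2-Aa 49. The letters AACNGATG preceded it in the first 3 of these by 22, 22 and 21 bases, and were not in the H2-Aa window. Their absence does not show that H2-Aa lacks an X box, since other forms of the box were not searched for. Over all 32851 promoter windows, counting both strands, GATTGG was in 16.1%, AACNGATG in 2.32% and both together in 0.335%. The DM beta stretches matched at 81 of 91 bases (89.0%) at their best ungapped offset, whereas H2-DMb1 and H2-Eb1 matched at 49 of 117 (41.9%). One H2-DMa window held GATTGG, 199 bases before its start, and the other held neither motif. Neither H2-DMa window held TTCNNNGAA or TTCNNNNGAA, the spaced palindromes that STAT proteins bind, which were in 8.3% and 6.95% of all windows (both strands). TTCNNNNGAA was in no member window, and TTCNNNGAA was in that of H2-DMb2 alone, 218 bases before its start.

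The summed FPKM of a sample ran from 385889 to 464915, and 10017 to 10380 loci reached 1 FPKM. Relative sequencing depth, recovered from the steps of the low values, ran from 0.706 to 1.555 of the median, with a median of 1.0 in WT and 1.006 in Stat6-/- samples; read counts themselves were not given, so no counting interval is attached to a value. Stat6 was at 58.7 to 90.6 FPKM in the 35 WT samples and at 14.3 to 24.0 FPKM in the 18 Stat6-/- samples, lower in every knockout sample but not at 0. The 6 macrophage markers (Emr1, Csf1r, Cd68, Fcgr1, Mertk and Itgam) summed to at least 2604 FPKM in every sample, and the 7 T and NK cell markers to at most 0.394 FPKM in any. The paper describes its WT RNA-seq values as averages over 4 animals and gives n = 2 for Stat6-/-. The labels do not say which samples share an animal, and samples of different groups may do so. The main fit treats all 53 samples as independent, so p-values measure the spread between samples, which may in part be technical. In bulk RNA of this kind, fewer cells of a type and less RNA per cell cannot be told apart.

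FPKM is scaled by length, so levels can be compared between genes. In the 20 WT controls Cd74 was the most abundant member (median 1248 FPKM, range 792 to 1700), followed by H2-Aa (316; 216 to 462), H2-Ab1 (217; 134 to 306) and H2-Eb1 (108; 75.3 to 178). H2-DMb1 (61.6; 44.9 to 85.1) and H2-DMa (42.2; 28.7 to 57.6) came next, and Ciita (5.25; 3.18 to 7.64) and H2-DMb2 (4.52; 3.08 to 6.13) were lowest. Cd74 stood clear of all others, whereas the ranges of H2-Aa and H2-Ab1, of H2-Ab1 and H2-Eb1, of H2-Eb1 and H2-DMb1, of H2-DMb1 and H2-DMa, and of Ciita and H2-DMb2 overlapped. The plot of FPKM by sample shows these levels for both genotypes.

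**Figure D1:**
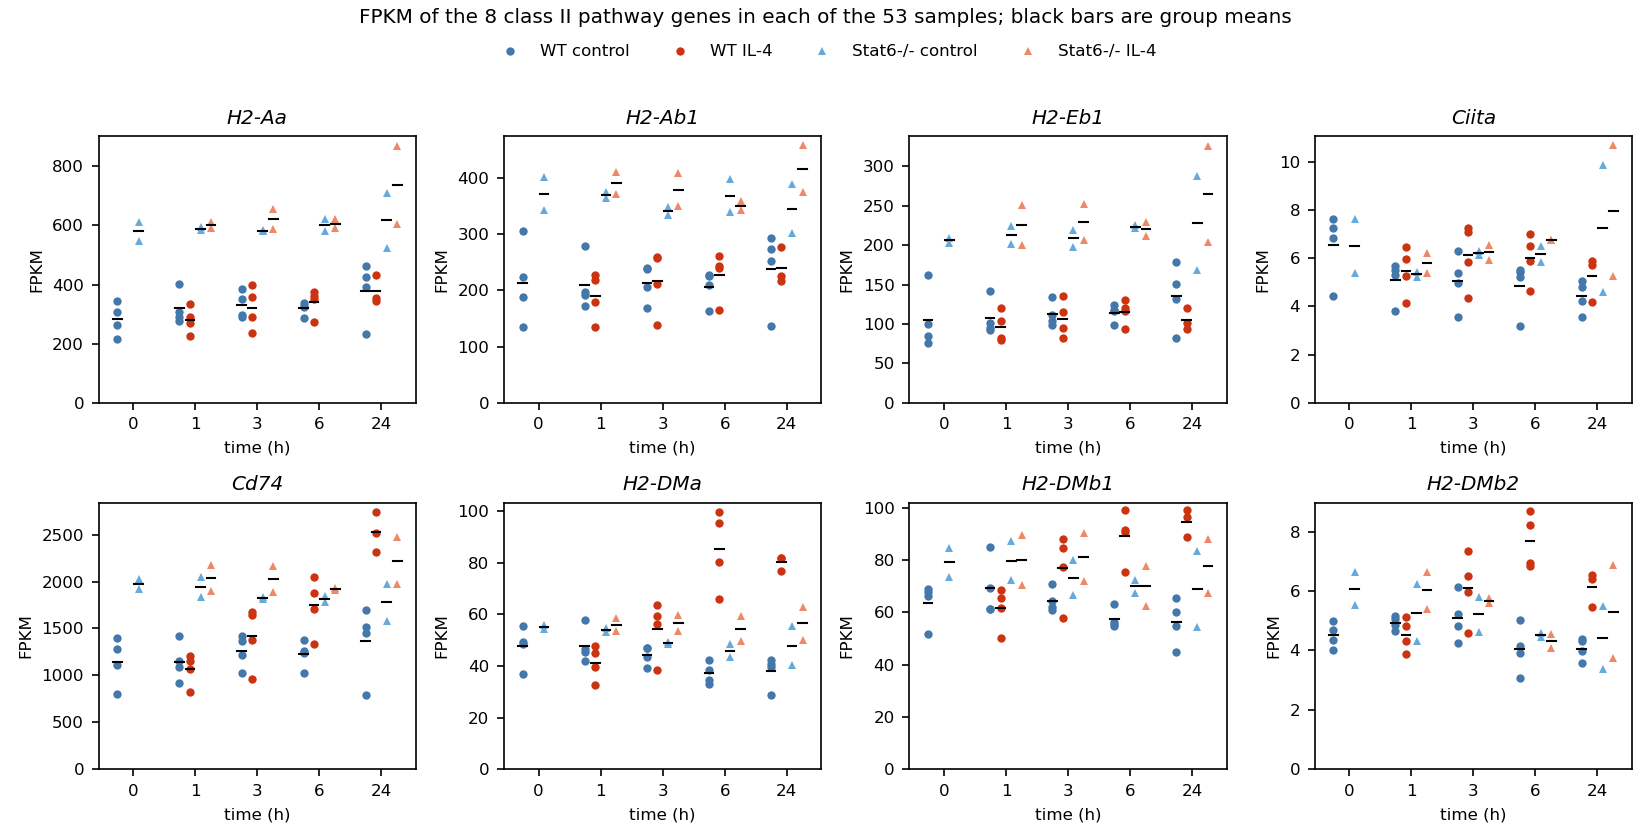
FPKM of each member (linear axis from 0) against time in h; circles are WT and triangles Stat6-/- samples, blue control and red or orange IL-4, and black bars are group means. H2-DMa with IL-4 sits at 66.1 to 99.8 FPKM in WT at 6 h, above its 4 controls at 33.1 to 42.1, while H2-Aa, H2-Ab1 and H2-Eb1 with IL-4 overlap their controls in WT at every time.

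IL-4 raised the peptide editor and the invariant chain in WT BMDMs, at 6 and 24 h, while no change of the antigen-presenting chains or of Ciita passed the test. H2-DMa rose 2.30-fold at 6 h and 2.12-fold at 24 h, as ratios of mean FPKM. H2-DMb1 rose 1.55- and 1.68-fold, H2-DMb2 1.90- and 1.51-fold and Cd74 1.43- and 1.85-fold at these times. "Passed" means an adjusted p under 0.05 in limma on log2(FPKM + 1), adjusted by the Benjamini-Hochberg method over the 11146 loci, and "called" means that the change was also at least 2-fold on that scale. In all, 4 of 8 members passed upward at 6 h and 4 of 8 at 24 h, and none downward. Of all tested loci, 22% passed upward and 19.2% downward at 6 h, and 23.4% upward and 31.6% downward at 24 h. The median log2 difference over the 8 members was 0.39 at 6 h and 0.35 at 24 h, and over all loci -0.00 and -0.07.

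H2-DMa encodes the alpha chain of the peptide editor. At 6 h its WT controls read 34.6, 33.1, 42.1 and 38.5 FPKM and the IL-4 samples 80.3, 66.1, 95.4 and 99.8. At 24 h the controls read 42.2, 28.7, 39.8 and 40.9 and the IL-4 samples 82.0, 76.7 and 82.0. All IL-4 samples lay above all controls at both times, by log2 differences of 1.17 (SE 0.14, limma adjusted p = 1.21e-08) and 1.08 (SE 0.15, adjusted p = 2.63e-07). H2-DMa was the sole member called at 2-fold, against 3.18% of loci called higher at 6 h and 3.91% at 24 h. Brd2, the gene that shares exon bases with it, differed by 0.06 at 6 h (adjusted p = 0.504) and 0.09 at 24 h (adjusted p = 0.301), and had fallen by 0.25 at 1 h (adjusted p = 0.00609) and by 0.22 at 3 h (adjusted p = 0.00714).

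Both beta chain genes of the editor rose as well. H2-DMb1 read 54.8, 55.5, 63.1 and 56.4 FPKM in the 6 h controls and 90.6, 75.5, 99.2 and 91.5 with IL-4. At 24 h it read 65.4, 44.9, 60.0 and 54.9 in controls and 98.97, 88.6 and 96.4 with IL-4. The groups did not overlap at either time (log2 differences 0.62, SE 0.14, limma adjusted p = 0.000359, and 0.75, SE 0.15, adjusted p = 6.53e-05). H2-DMb2, the less abundant paralog, went from 3.91, 3.08, 5.02 and 4.14 FPKM to 6.96, 6.85, 8.70 and 8.22 at 6 h, a log2 difference of 0.79 (SE 0.14, adjusted p = 7.2e-06). At 24 h its controls read 4.31, 3.98, 4.40 and 3.56 and its IL-4 samples 6.54, 5.46 and 6.39, again without overlap (0.49, SE 0.15, adjusted p = 0.00437). Without WT replicate 4 the 24 h difference of H2-DMb2 no longer passed (limma adjusted p = 0.0758), nor did it under Tukey's test (0.153). The lowest adjusted p over the 13 alternatives was 0.000179. The part of reads from the more abundant H2-DMb1 in the H2-DMb2 values was not tested.

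Cd74, the invariant chain gene, was the most abundant member throughout. At 6 h the WT controls read 1260, 1020, 1377 and 1236 FPKM and the IL-4 samples 1711, 1339, 2046 and 1882, so that 1 IL-4 sample lay below the highest control. At 24 h the controls read 1511, 792, 1700 and 1454 and the IL-4 samples 2516, 2310 and 2743, all above the controls. The log2 differences were 0.50 (SE 0.19, limma adjusted p = 0.0307) and 0.94 (SE 0.20, adjusted p = 0.000191). The 6 h change passed in 8 of 13 alternatives, with adjusted p from 0.000267 to 0.381, and was lost with no filter on low values, under the Tukey test and without WT replicate 1, 3 or 4; the 24 h change passed in all 13.

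The genes of the antigen-presenting chains did not pass at any time in WT. H2-Aa, the A alpha chain, read 324, 287, 338 and 329 FPKM in the 6 h controls and 374, 272, 363 and 350 with IL-4, and at 24 h 462, 233, 427 and 391 against 354, 346 and 432. Its log2 differences had 95% confidence intervals of -0.27 to 0.43 at 6 h and -0.34 to 0.41 at 24 h. For H2-Ab1, the A beta chain, these were -0.31 to 0.57 and -0.41 to 0.54. H2-Eb1, the E beta chain, was at 100.6, 94.2 and 120 FPKM with IL-4 at 24 h and at 178, 82.7, 151 and 132 in controls, a log2 difference of -0.33 (95% interval -0.78 to 0.13, limma adjusted p = 0.217). The intervals for H2-Aa and H2-Ab1 leave out a doubling, and they do not show that the chains were unaltered.

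Ciita, the coactivator gene, did not pass either. At 6 h it read 5.51, 3.18, 5.41 and 5.21 FPKM in WT controls and 7.01, 4.65, 6.49 and 5.87 with IL-4, overlapping groups that differed by 0.28 on the log2 scale (SE 0.19, limma adjusted p = 0.258). At 24 h it read 5.05, 3.54, 4.24 and 4.82 against 5.88, 4.19 and 5.71 (0.21, 95% interval -0.21 to 0.63). Dexi, which shares exon bases with Ciita, did not pass at any time in WT.

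At 1 and 3 h no member passed, and none had an unadjusted limma p under 0.05, against 19.8% and 37.0% of all loci. At 1 h the members' log2 differences ran from -0.22 (H2-DMa) to 0.09 (Ciita), and 5.67% of all loci passed upward and 3.72% downward. At 3 h they ran from -0.09 (H2-Eb1) to 0.28 (H2-DMa), and 16.4% and 12.5% of loci passed. H2-DMa at 3 h read 59.4, 38.5, 56.3 and 63.5 FPKM with IL-4 and 46.8, 39.3, 43.3 and 47.0 in controls, so 3 of 4 IL-4 samples lay above every control. Without WT replicate 2 this difference passed (0.38, limma adjusted p = 0.0133). The change of response between times was tested in the same fit, a contrast added after the data had been seen. From 3 to 6 h the H2-DMa response grew by 0.89 on the log2 scale (SE 0.20, limma adjusted p = 0.00592), the sole member of 8 to pass, against 3.31% of loci. Without WT replicate 3 or 4 it no longer passed, with a highest adjusted p of 0.0758. The difference for H2-DMb2 was 0.58 (limma adjusted p = 0.0937) and passed with quantile normalization (0.0492), where 389 of 11146 loci did. It was also 0.58 in fits without 1 Stat6-/- replicate, which leave 1 sample in each knockout group and alter only the spread used here. From 6 to 24 h no response of a member differed past the threshold, against 27.8% of loci; the largest difference was that of Cd74 (0.44, adjusted p = 0.254).

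**Figure D2:**
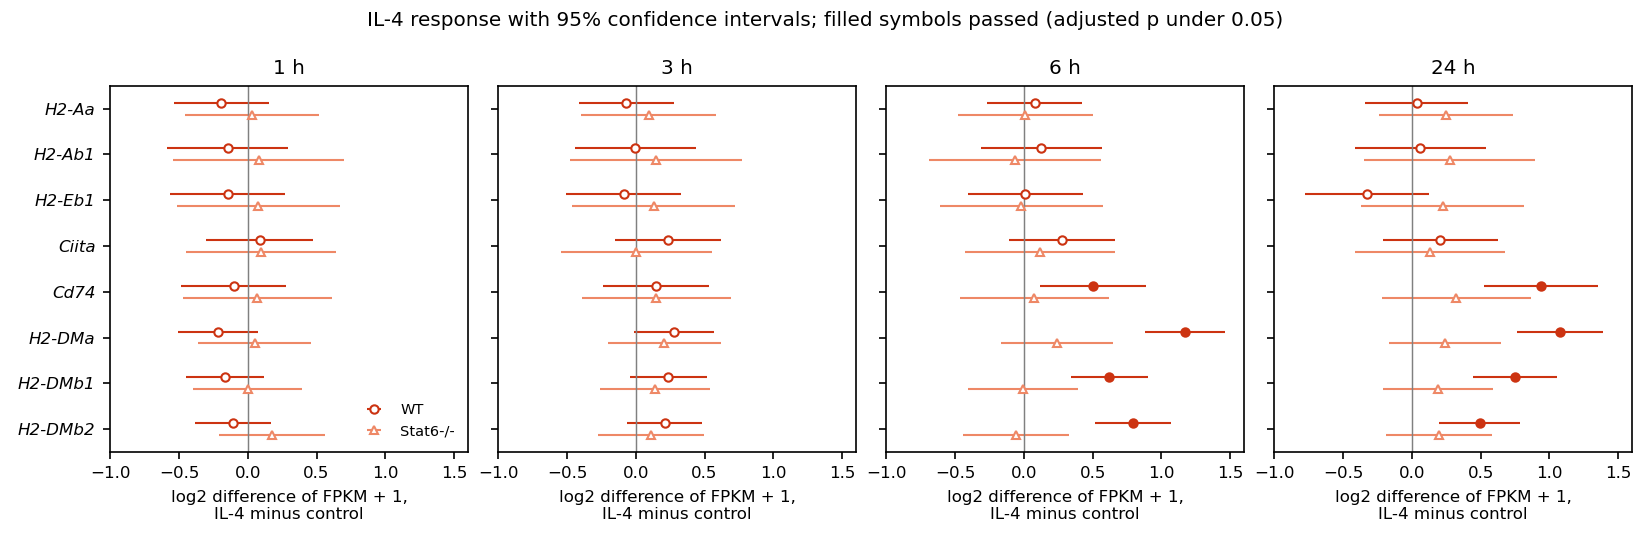
Log2 difference of FPKM + 1 between IL-4 and time-matched control (x axis) for each member at 4 times, circles WT and triangles Stat6-/-, bars 95% confidence intervals of the limma fit; filled symbols passed. The 8 filled symbols are the 3 DM genes and Cd74 in WT at 6 and 24 h, and no Stat6-/- symbol is filled.

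In Stat6-/- BMDMs no member passed at 1, 3, 6 or 24 h with IL-4, and 0% of the 11146 loci passed at each of these times in limma. With an unadjusted p under 0.05 there were no members, and 51, 131, 88 and 37 loci in all. Tukey's test over the treated and control groups also passed no member. H2-DMa read 48.4 and 43.3 FPKM in the 6 h controls and 49.6 and 59.4 with IL-4, and at 24 h 40.3 and 55.4 against 50.04 and 63.0. Cd74 read 1581 and 1973 in the 24 h controls and 1971 and 2472 with IL-4, which overlapped. At 24 h the log2 differences of the 8 members were 0.13 to 0.32, all upward, with 95% intervals of -0.22 to 0.86 for Cd74 and -0.17 to 0.65 for H2-DMa.

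The difference of the IL-4 response between genotypes was tested directly. At 6 h it passed for H2-DMa, whose WT response was larger by 0.93 (SE 0.25, limma adjusted p = 0.00624), and for H2-DMb2, larger by 0.85 (SE 0.23, adjusted p = 0.00822), that is 2 of 8 members against 16.5% of loci. At 24 h it passed for H2-DMa, 0.83 (95% interval 0.32 to 1.35, adjusted p = 0.0125), that is 1 of 8 against 27% of loci. No member passed at 1 or 3 h, where 3.36% and 11.2% of loci did. For H2-DMb1 the difference was 0.63 at 6 h (adjusted p = 0.0705) and 0.56 at 24 h (0.0883), and for Cd74 0.43 (0.457) and 0.62 (0.174). The H2-DMb1 difference at 6 h passed with only the compared groups in the fit (0.0291) and without WT replicate 2 (0.0321). The H2-DMa difference at 6 h was lost without Stat6-/- replicate 1 (0.164; range over alternatives 8.28e-05 to 0.164). At 24 h it was lost without Stat6-/- replicate 1 (0.0516) or 2 (0.0893) and with only the compared groups in the fit (0.0527; lowest 0.000208).

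Among the controls, with no IL-4 added, H2-Aa and H2-Eb1 were higher in Stat6-/- than in WT BMDMs. At 0 h H2-Aa read 611 and 549 FPKM in Stat6-/- and 343, 216, 264 and 308 in WT, 1.05 higher on the log2 scale (SE 0.21, limma adjusted p = 0.00354). H2-Eb1 read 210 and 203 against 162, 75.3, 84.7 and 99.7 (1.024, SE 0.25, adjusted p = 0.0233). The knockout samples lay above all WT samples in both cases. H2-Aa also passed at 1 h (0.90, adjusted p = 0.0173), 3 h (0.82, 0.0497) and 6 h (0.91, 0.0279), and H2-Eb1 at 1 h (1.01, 0.0297). At 24 h neither did (0.74 for each, adjusted p = 0.215 and 0.43).

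The passing members were thus 2, 2, 1, 1 and 0 of 8 at 0, 1, 3, 6 and 24 h, against 0.673%, 0.44%, 0.153%, 0.0987% and 0.0359% of loci passing upward. H2-Ab1 (401 and 343 FPKM at 0 h against 306, 134, 187 and 224) and Cd74 (2026 and 1920 against 1395, 796, 1105 and 1283) had log2 differences of 0.58 to 0.86 and 0.43 to 0.82 over the 5 times and did not pass. Without WT replicate 2, H2-Ab1 passed at 0, 1 and 6 h (limma adjusted p = 0.045, 0.0197 and 0.0498) and Cd74 at 0 and 1 h (0.0129 and 0.00896). Without WT replicate 1, H2-Ab1 passed at 0 and 1 h (0.0327 and 0.0464) and Cd74 at 0 h (0.045), and Cd74 also passed with median-of-ratios scaling at 0 h (0.0369) and quantile normalization at 1 h (0.0494). H2-Eb1 passed at 3 and 6 h without WT replicate 1 (0.025 and 0.02) and at 6 h under Tukey's test (0.0272). Those of Ciita were -0.00 to 0.54 and those of H2-DMb1 0.18 to 0.31, and neither passed. Over the 10 Stat6-/- and 20 WT controls of all times, H2-Aa was higher in the knockout in 200 of 200 pairs of samples (524 to 711 against 216 to 462 FPKM), and H2-Ab1, H2-Eb1 and Cd74 each in 199. For Ciita this held in 145 pairs, for H2-DMa in 160, for H2-DMb1 in 166 and for H2-DMb2 in 136. The controls of different times may share animals, so these pairs are a description.

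These calls between genotypes rest on 2 knockout samples a time, and a fit without 1 Stat6-/- replicate leaves 1. With only the compared groups in the fit none passed (H2-Aa adjusted p = 0.182, 0.184, 0.131 and 0.125 at 0, 1, 3 and 6 h). Leaving out 1 replicate number at a time, H2-Aa at 0 h always passed. At 1 and 6 h it was lost without WT replicate 3 (0.158 and 0.182), WT replicate 4 (0.111 and 0.0955) or Stat6-/- replicate 2 (0.0715 and 0.0741). At 3 h it was lost without WT replicate 3 (0.296), WT replicate 4 (0.132) or Stat6-/- replicate 1 (0.0571) or 2 (0.1395), and H2-Eb1 at 0 h without WT replicate 2 (0.0688), 3 (0.146) or 4 (0.0851) or Stat6-/- replicate 2 (0.113). H2-Eb1 at 1 h was lost without WT replicate 3 (0.221), WT replicate 4 (0.164) or Stat6-/- replicate 2 (0.116). At 24 h, Stat6-/- replicate 2 stood high (Ciita 9.89 FPKM against 4.59 in replicate 1, H2-Eb1 287 against 169). Without replicate 1 that 1 sample is set against the WT controls. The log2 difference was then 1.017 for Ciita, 0.95 for H2-Aa, 1.13 for H2-Eb1 and 0.57 for H2-DMb1, with no spread within the knockout group.

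**Figure D3:**
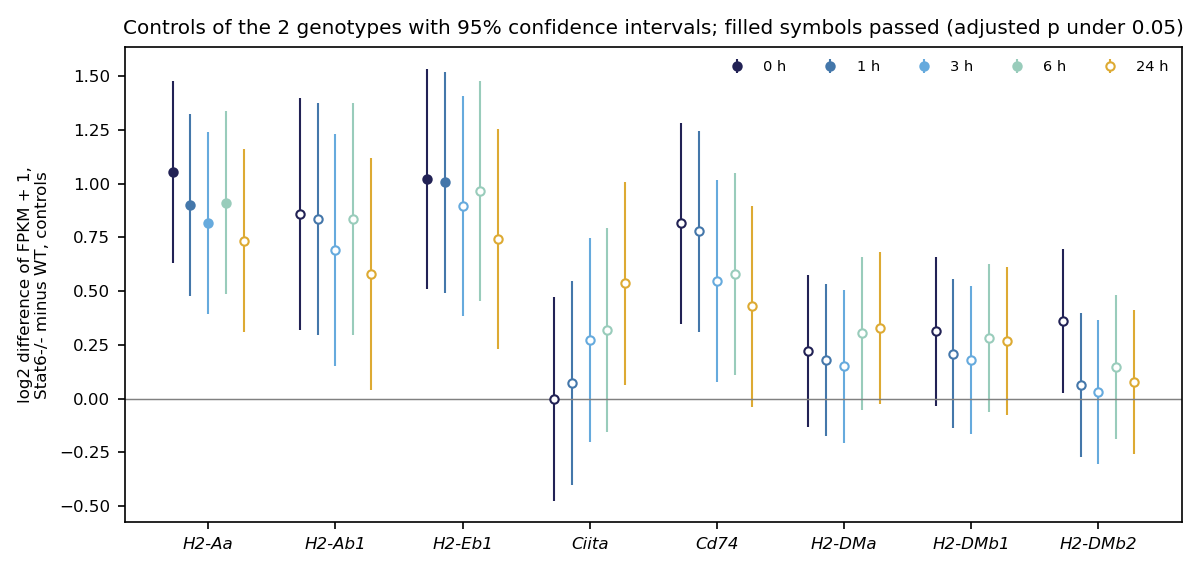
Log2 difference of FPKM + 1 between Stat6-/- and WT controls (y axis) for each member at 0, 1, 3, 6 and 24 h, with 95% confidence intervals of the limma fit; filled symbols passed. H2-Aa is filled from 0 to 6 h and H2-Eb1 at 0 and 1 h, and H2-DMa, H2-DMb1 and H2-DMb2 lie between 0.03 and 0.36.

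Markers of other cell types also differed between the control cultures. The 8 dendritic cell markers summed to 5.07 to 12.9 FPKM (median 7.36) in the WT controls and to 8.54 to 20.3 (12.0) in the Stat6-/- controls. The 7 B cell markers summed to 2.60 to 5.99 (5.10) and 3.46 to 13.9 (7.63), the neutrophil markers to 269 to 550 (393) and 514 to 963 (661), and the macrophage markers to 2889 to 3825 (3367) and 3418 to 4469 (3672). S100a8 and S100a9 passed upward in the knockout at 0, 1 and 3 h, and Siglech, below 1 FPKM on average, at 1 and 3 h. The medians of all these sums were higher in the knockout, while some single genes stayed low. The defining B cell gene Pax5 was at 0 in 20 of the 20 WT controls and at most 0.0514 FPKM in Stat6-/- controls. The dendritic cell genes Flt3, Clec9a and Xcr1 were under 0.6 FPKM in every control. In the 2 Stat6-/- controls of 24 h the B cell sums were 3.46 and 13.9 FPKM and the dendritic cell sums 8.54 and 20.3. Ciita and H2-Eb1 also lay far apart in that group. The part of such cells in the higher H2-Aa and H2-Eb1, or in that spread, was not tested.

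With IL-4 the WT marker sums moved as well. The dendritic cell sum was 50.4 to 54.5 FPKM in the 24 h IL-4 samples and 8.73 to 12.9 in their controls. Without Batf3 it was 1.35 to 2.85 against 1.61 to 5.18, so the difference lay in that 1 gene. The B cell sum was 1.23 to 1.52 FPKM with IL-4 at 24 h and 2.60 to 5.43 in controls, the neutrophil sum 195 to 287 against 404 to 550, and the macrophage sum 2604 to 2626 against 3274 to 3773, with 4 of the 6 macrophage genes falling. At 6 h, where the DM genes had also risen, the dendritic cell sum was 64.7 to 79.8 FPKM with IL-4 and 6.97 to 9.27 in controls (without Batf3, 1.73 to 2.13 and 1.38 to 2.18). The B cell sum was then 4.71 to 7.54 against 4.43 to 5.76, the neutrophil sum 303 to 380 against 280 to 404 and the macrophage sum 2958 to 3268 against 3104 to 3373. The part of other cells in the rise of the DM genes and Cd74 was not tested.

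Ratios of a pair of members within a sample cancel any factor that scales both genes alike. In all, 5 pairs were compared by a two-sided exact permutation test, chosen after the data had been seen; 4 samples against 4 allow no p below 0.0286 and 3 against 4 none below 0.0571. The log2 ratio of Cd74 to H2-Aa in WT was 1.93 ± 0.08 in controls and 2.35 ± 0.14 with IL-4 at 6 h (SD, n = 4 and 4, exact p = 0.0286). At 24 h it was 1.84 ± 0.13 and 2.75 ± 0.08 (n = 4 and 3, exact p = 0.0571), a 0.91 log2 difference. The groups did not overlap at either time, each p being the smallest possible, and none of the 20 WT tests had an adjusted p below 0.104.

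H2-DMa moved against H2-Aa as well. H2-DMa to H2-Aa was -3.11 ± 0.09 in the 6 h controls and -2.0 ± 0.17 with IL-4 (SD, n = 4 and 4, exact p = 0.0286), and -3.29 ± 0.20 against -2.23 ± 0.15 at 24 h (n = 4 and 3, exact p = 0.0571). At 3 h it was already 0.35 higher with IL-4, without overlap (exact permutation p = 0.0286), although neither gene had passed alone. Within the editor, H2-DMa to H2-DMb1 in WT was 0.56 higher with IL-4 at 6 h and 0.34 at 24 h, without overlap. Its mean with IL-4 stayed negative, at -0.07 and -0.24, so that H2-DMa remained below H2-DMb1 on average. Among the chains, H2-Eb1 to H2-Aa in WT was 0.36 lower with IL-4 at 24 h, again without overlap, at -1.85 ± 0.03 against -1.48 ± 0.08 (SD, n = 3 and 4, exact p = 0.0571). In Stat6-/- at 6 h, H2-DMa to H2-DMb1 was 0.25 higher with IL-4, H2-DMa to H2-Aa 0.23 and Cd74 to H2-Aa 0.07, each without overlap. At 24 h these differed by 0.05, -0.002 and 0.07, with overlap. With 2 samples a group the smallest exact permutation p is 0.333.

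The Stat6-/- controls lay below the WT controls in several of these ratios. Their H2-DMa to H2-Aa ratio was lower by 0.83, 0.72, 0.67, 0.60 and 0.40 on the log2 scale at 0, 1, 3, 6 and 24 h, without overlap at any time. Their Cd74 to H2-Aa ratio was lower by 0.12 to 0.34, with overlap at 1 h. H2-Aa to Ciita was higher by 1.06 at 0 h and by 0.11 at 24 h. With 2 samples against 4 the smallest exact permutation p is 0.133, so these differences could not reach the threshold. The ratio shows that H2-Aa and H2-DMa differed unequally, not that either was the same in both genotypes.

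**Figure D4:**
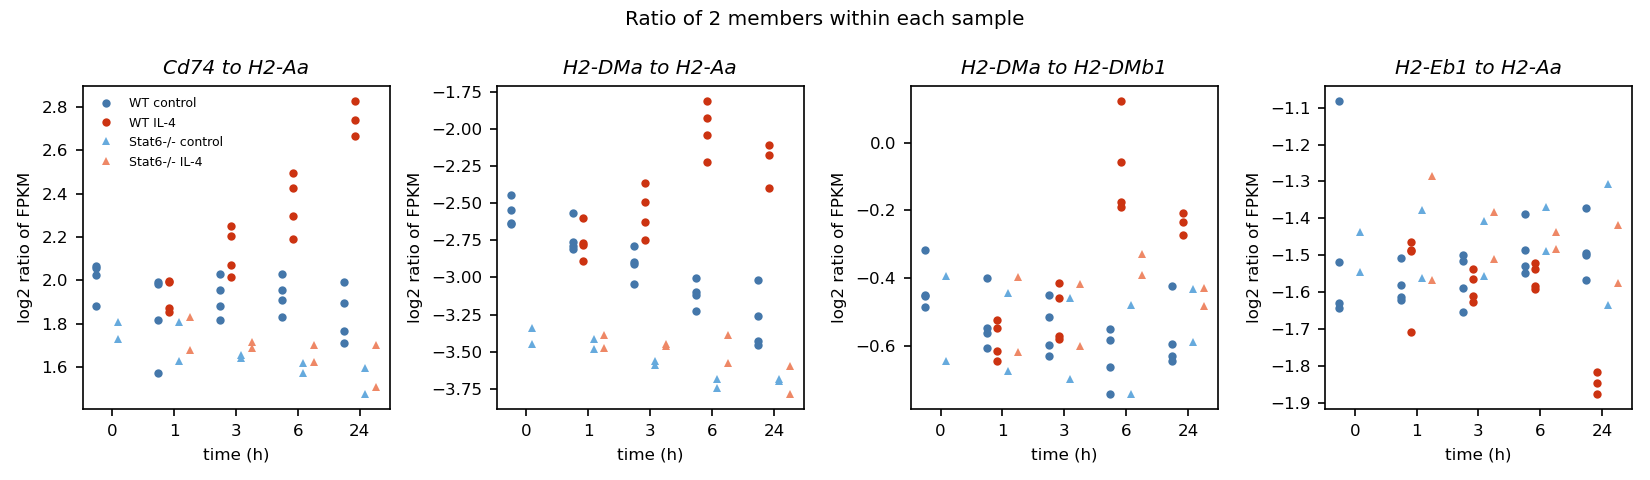
Log2 ratio of FPKM of 2 members within each sample (y axis, log scale by construction) against time in h, circles WT and triangles Stat6-/-, blue control and red or orange IL-4. In WT at 24 h the Cd74 to H2-Aa ratio averages 2.75 with IL-4 and 1.84 in controls, and the Stat6-/- samples lie at the lower end for H2-DMa to H2-Aa at every time.

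Time in culture without IL-4 was compared next. Between 0 and 24 h no member passed in the WT controls (17.2% of loci did) or in the Stat6-/- controls (0.718%). In WT, 3 of 8 members had an unadjusted limma p under 0.05, as did 31.1% of all loci. Ciita went from a mean of 6.54 to 4.41 FPKM (log2 difference -0.46, adjusted p = 0.0877), H2-Aa from 283 to 378 (0.39, adjusted p = 0.108) and H2-DMa from 47.6 to 37.9 (-0.32, adjusted p = 0.115). Without WT replicate 2, Ciita (limma adjusted p = 0.0457) and H2-Aa (0.0284) passed. Fits without 1 Stat6-/- replicate leave 1 sample in each knockout group. They alter only the spread used here, not the Ciita difference of -0.46.

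Levels also varied between samples of a group, in the same direction for most members. WT replicate 2 was the lowest sample for H2-Ab1 in 9 of 9 WT groups, for Ciita and Cd74 in 8 and for H2-Aa and H2-DMa in 7. WT replicate 1 was the highest for H2-Eb1 in 8 of its 8 groups and for H2-Aa in 7. Stat6-/- replicate 2 was the higher for H2-DMb1 in 9 of 9 groups. Over the 20 WT controls, log2 levels of H2-Aa correlated with H2-Ab1 (Pearson r = 0.896), H2-Eb1 (0.930) and Cd74 (0.905), and H2-DMa with H2-DMb1 (0.908), while H2-Aa and H2-DMa (0.399) and Ciita and H2-Aa (0.198) went together less closely. The WT controls pool all times. Over the 10 Stat6-/- controls, Ciita and H2-Aa correlated by 0.919 and H2-Aa and H2-DMa by 0.539. With group means subtracted, over all 53 samples, Ciita and H2-Aa correlated by 0.733. On that basis H2-DMa correlated by 0.892 with the mean of H2-Aa, H2-Ab1, H2-Eb1 and Cd74. The samples share times and perhaps animals, so the correlations are descriptions.

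The genes whose log2 level over the 53 samples was most like the mean of H2-Aa, H2-Ab1, H2-Eb1 and Cd74 were Cmklr1 (r = 0.849), Prss34 (0.797), Adpgk (0.794), Mmp9 (0.782) and Prg2 (0.78). For Ciita they were Dnaaf3 (0.647), Pik3cd (0.625), Tnni3 (0.623), Plbd1 (0.613) and Anks1 (0.61). After subtraction of group means they were Vill (0.859), Dnaaf3 (0.848), Tmem223 (0.837), Aldh1l1 (0.821) and Xab2 (0.819) for the chains with Cd74, and Sh3bp1 (0.854), Ttc7 (0.835), Prex1 (0.834), Camkk2 (0.812) and Orai2 (0.793) for Ciita. Only the second set of likenesses is free of the difference between groups.

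Other genes of the pathway were taken from fixed lists. Of the 10 tested regulators of Ciita transcription, 5 passed upward and 2 downward at 1 h in WT, 4 upward at 3 h, 4 upward at 6 h, and 2 upward and 5 downward at 24 h. Their median log2 difference was 0.61, 0.22, 0.04 and -0.64 at these times, and that of all loci -0.02, 0.01, -0.00 and -0.07. Socs1, a feedback inhibitor of cytokine signalling, went from a mean of 0.592 to 95.3 FPKM at 1 h (log2 difference 5.90, limma adjusted p = 3.04e-20) and was still raised by 3.38 at 24 h. Irf4, an interferon regulatory factor induced by IL-4, went from 1.00 to 25.5 FPKM at 6 h (3.72, adjusted p = 4.51e-24). Irf1, which acts at the interferon-inducible Ciita promoter, rose by 0.95, 0.83 and 1.17 at 1, 3 and 6 h and differed by 0.46 at 24 h (adjusted p = 0.064).

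Ifngr1, a chain of the interferon-gamma receptor, had fallen by 24 h. It was at 78.5 FPKM with IL-4 and 176 in controls (log2 difference -1.15, limma adjusted p = 2.11e-10), after 0.49 at 1 h. The responses of Socs1 and Irf4 were larger in WT than in Stat6-/- at all 4 times, and Ifngr1 differed in its response at 24 h (-1.13, adjusted p = 3.01e-05). The difference of the response between genotypes did not pass for Irf1 at any time (0.65 at 6 h, adjusted p = 0.219).

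Of the 7 factors that bind the X and Y boxes (Rfx5, Rfxap, Rfxank, Nfya, Nfyb, Nfyc and Creb1), none was called at 2-fold: none passed at 1 h, 1 downward at 3 h, 1 upward and 1 downward at 6 h, and 1 upward and 2 downward at 24 h. Among all loci, 12.5% passed downward at 3 h, 22% upward and 19.2% downward at 6 h, and 23.4% and 31.6% at 24 h, shares that also stand behind the counts of the other lists. Of the 7 processing genes, none passed at 1 h, 1 downward at 3 h, 1 upward and 2 downward at 6 h, and 3 upward and 2 downward at 24 h. Their median log2 differences were -0.19, -0.14, -0.14 and 0.06. Ifi30, the lysosomal thiol reductase that unfolds antigens, went from 194 to 391 FPKM at 24 h (1.01, limma adjusted p = 3.47e-10), with a larger response in WT than in Stat6-/- (0.97, adjusted p = 5.62e-05). In controls, Ifi30 was higher in Stat6-/- at 0 h (0.44) and 24 h (0.55). Of the 3 genes of class II turnover, Cd83, which opposes the ubiquitin ligase March1, rose by 0.66, 1.51 and 1.81 at 1, 3 and 6 h, from 37.6 to 135 FPKM at 6 h (adjusted p = 7.59e-14), and fell by 0.97 at 24 h. March1 and March8 passed in 1 and 2 comparisons, none at 2-fold. The 1 further class II chain gene tested, H2-Oa, did not pass.

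The class I pathway served as a comparison. Of its 12 genes none passed at 1 or 3 h, 2 passed upward at 6 h, and 3 upward and 1 downward at 24 h, with median log2 differences of -0.12, 0.08, 0.17 and -0.07. Among all loci, 22% passed upward at 6 h, and 23.4% upward and 31.6% downward at 24 h. Calr, a chaperone that helps load class I molecules, was the sole gene called at 2-fold, from 399 to 832 FPKM at 24 h (1.08, limma adjusted p = 5.69e-07). In the comparison of Stat6-/- with WT controls no gene of the class I list, of the box-binding factors or of the Ciita regulators passed at any time (0 of 12, 0 of 7 and 0 of 10). Of all loci, 0.673% passed upward at 0 h and 0.0359% at 24 h, so counts of 0 in lists this short are near that share.

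**Figure D5:**
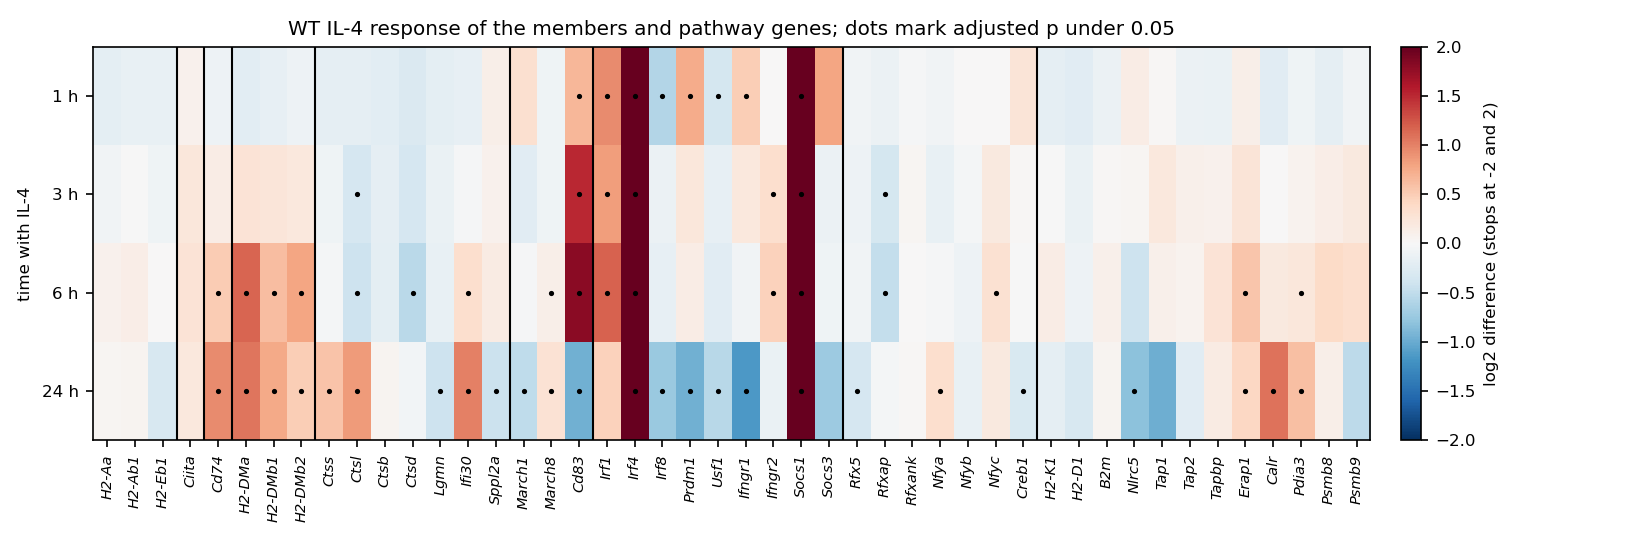
Log2 difference between IL-4 and control in WT BMDMs (colour, from -2 to 2, beyond which it saturates) for the members and the pathway genes reported here (columns, lists parted by black lines) at 1, 3, 6 and 24 h (rows); dots mark adjusted p under 0.05. Among the members, dots stand at Cd74, H2-DMa, H2-DMb1 and H2-DMb2 at 6 and 24 h; Irf4 and Socs1 are dotted at all 4 times.

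Cd74 lies apart from the MHC, on chromosome 18 (mm10 chr18:60803849-60812652, plus strand), where 12 of its 1679 exon bases overlap the microRNA gene Mir5107.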

How the data were processed

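Poly(A) RNA of BMDMs was sequenced after TruSeq library preparation from 1 µg of total RNA. Per the submitters' processing notes, the authors aligned reads with TopHat2 2.0.7 to mm10 and computed FPKM with Cufflinks 2.0.2; the deposited FPKM values were used as given, and the gene annotation is not given in the sources used here. Values above 0 but under 1e-06 FPKM (4316) were set to 0, and 740 loci share a symbol with another. Loci that reached 1 FPKM in any of the 53 samples were kept (11146 of 23847).

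A group-means model over all samples was fitted to log2(FPKM + 1) with limma 3.58.1 (R 4.3.3, eBayes with trend, 35 residual degrees of freedom), and p-values were adjusted over all tested loci. Fold changes on that scale understate those of low genes. Tests were two-sided. The fit was tested on simulated data with independent samples, which cannot show whether the real samples are independent. No pair of samples held identical values. The alternatives were another pseudocount (0.1), no filter, quantile and median-of-ratios scaling, only the groups compared, the replicate number as a block, a one-way ANOVA with Tukey adjustment and leaving out replicates. WT replicate 1 at 24 h with IL-4 was not analysed here.

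The members and gene lists were chosen with earlier results of these data known. Members are named in every comparison, and other pathway genes with values where called in WT at any time, apart from counts of 5 or fewer; some listed genes are counted but not reported here by name. The 5 tested loci most correlated with the mean z-score of the chains and Cd74, and with Ciita, are named. Brd2 and Dexi, the ratios and the contrasts between times were added after the values had been seen. RefSeq promoters were searched on both strands with Python 3.11.15. No promoter of Ciita, H2-Ab1 or Cd74 was analysed here.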

Additional observations from a re-analysis of the deposited data

Results flagged for a closer look

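The IL-4 response differed between genotypes by the interaction test for H2-DMa at 6 h (WT larger by 0.929 on the log2 scale), for H2-DMb2 at 6 h (0.850) and for H2-DMa at 24 h (0.835), the changes described above.

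Over the 8 members in WT groups of 4 samples, 64 sets in all, a sample standing far from the others was looked for with Dixon's ratio, the gap to the nearest sample over the range of the group, against its 95% critical value. There were 2, and chance alone gives about 1 in 20. Ciita in WT replicate 2 of the 6 h controls was at 3.18 FPKM, with the others at 5.21 to 5.51 (ratio 0.870). H2-DMb1 in WT replicate 2 of the 0 h controls was at 51.9 FPKM, with the others at 66.3 to 69.0 (ratio 0.840).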

How the results depend on the processing

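No member's log2 difference or ratio changed direction among those that passed, under any alternative. Outside leave-one-out, counts of passing members kept within 1.5-fold of the reported count in 118 cases and moved further in 15. The Stat6-/- against WT counts went to 0 with only the compared groups in the fit at 0, 1, 3 and 6 h, to 0 at 3 h with log2(FPKM + 0.1), with no filter on low values and with quantile normalization, and to 2 at 6 h under the Tukey test. The difference of response at 24 h went from 1 member to 0 with only the compared groups, and the change of the WT response from 3 to 6 h from 1 to 2 with quantile normalization. Labels do not tie replicate numbers to animals, and the deviations of same-numbered WT IL-4 and control samples correlated by 0.274 on average (lowest 0.027); those of Stat6-/- did by 0.857 (lowest 0.791), but with 2 samples a group the deviations mirror each other. Since not every WT pair correlated above 0.1, the numbers were not taken to pair the samples; as a hint from the data, 12 of 15 WT and 8 of 8 Stat6-/- IL-4 samples correlated best with the control of their own number. With the replicate block, 2 members passed in WT at 3 h and 3 in the difference of response at 24 h. The latter were H2-DMa, with H2-DMb1 and Cd74 gained (limma adjusted p = 0.00284 and 0.00573), and H2-DMb1 was also gained at 6 h (0.00214). The block also passed 4 members in WT controls at 24 against 0 h, 3 in the change of response from 3 to 6 h and 1 from 6 to 24 h. Of the 11146 loci, 4580 passed with the block in WT at 3 h. In the difference of response 5019 loci passed at 24 h and 3362 at 6 h. For WT controls at 24 against 0 h the number was 4134, and for the changes of response 1319 (3 to 6 h) and 4916 (6 to 24 h). Leaving out 1 replicate number of a genotype at a time, passing members ran from 0 to 1 in WT at 3 h, 3 to 4 at 6 h and 3 to 4 at 24 h; from 1 to 3 and 0 to 1 for the difference of response at 6 and 24 h; from 1 to 4, 0 to 4, 0 to 2, 0 to 2 and 0 to 4 for Stat6-/- against WT controls at 0, 1, 3, 6 and 24 h; from 0 to 2 for WT controls at 24 against 0 h and for the change of response from 3 to 6 h; and 0 to 0 elsewhere. The causes were not tested. Every leave-one-out fit holds fewer samples. Fits without 1 Stat6-/- replicate leave 1 sample in each knockout group, so those groups then add nothing to the shared spread. The ranges above include such fits. The block could not be fitted between genotypes, nor the Tukey test for interactions or 0 h. FPKM tables hold no read counts, so counting error could not be separated from other spread.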
